A study of Mus musculus with 4 samples.

Results

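Of the 4295 circRNAs in the deposited table, 1806 overlap a gene on its own strand (the class named sense-overlapping) and carry no circBase identifier. These 1806 circRNAs, called the members here, were chosen by those 2 columns alone and not by any measured level. Another 2036 sense-overlapping circRNAs do carry an identifier, and they serve as the comparison class. circBase is a public catalogue of circRNAs collected from published studies, so a circRNA without an identifier is one that the catalogue as used by the authors did not hold.

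The RNA came from C3H10T1/2, a mouse mesenchymal stem cell line that can be turned towards muscle, fat and cartilage. In the untreated group, replicates 1 and 2, the cells had no 5-AZA, and no culture time is listed. In the 5-AZA group, replicates 101 and 102, the cells were kept with 20 µM 5-AZA (5-azacytidine, a cytidine analogue that lowers DNA methylation) for 72 hours and then for 21 days in fresh medium. Total RNA was freed of ribosomal RNA and sequenced with strand, and the labels do not say that the replicates were separate cultures, so every p-value here measures the spread between these 4 samples of 1 cell line.

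A circRNA forms when the spliceosome joins the end of an exon to the start of the same or an upstream exon, a reaction called back-splicing. The resulting circle has no free ends, resists exonucleases and is counted by the reads that cross its back-spliced junction. Exons flanked by long introns with pairing repeats, and pre-mRNAs bound by factors such as QKI, MBNL1 and RBM20, are known to give circles. Long muscle genes, titin among them, are known sources in striated muscle, and circles often accumulate in cells that have stopped dividing.

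The RPM values (junction reads scaled to the sequenced reads) of each sample came out as whole junction reads in 100% of cases. Junction reads totalled 13282 and 13388 in untreated samples and 10905 and 10448 after 5-AZA. No listed value was below 2 reads, so a value of 0 stands for fewer than 2 reads. The mRNA values of 9 mesenchymal markers summed to 3232 and 3292 FPKM (fragments scaled to transcript length and to the sequenced fragments) in the untreated and to 2064 and 2312 FPKM in the 5-AZA replicates, and all 9 were above 0.01 FPKM in at least 1 sample. Of the 8 tested, 1 (Thy1) was called higher and 0 lower. Their median difference on the log2 scale was 0.28, opposite in sign to that of the sum. The sum of 9 skeletal muscle markers was 1.60 and 1.27 FPKM against 812 and 1244 FPKM, and all 9 were called higher after 5-AZA. The 6 adipocyte markers summed to 42.6 and 27.8 FPKM against 1030 and 1415 FPKM, and of the 5 chondrocyte markers tested 4 were called lower and 1 higher. Of 8 cardiac markers, Nppa, Nppb, Myl7, Tbx5 and Hand2 were below 0.01 FPKM in every sample, and the 2 that could be tested, Myh6 and Tnni3, were called higher. The cardiac list summed to 0.321 and 0.370 against 1.62 and 3.51 FPKM. The part of these other cell types in the circRNA values was not tested.

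Promoter windows of 4 hosts are printed first as examples, because 5-AZA lowers the DNA methylation of CG pairs. Each is a RefSeq window of 300 bases (250 before to 50 after the transcription start) on GRCm38.p6, written along the gene, with every CG pair in capitals. Ttn encodes titin, the elastic giant of the sarcomere, and its window lies at chr2:76982498-76982797 on the minus strand with 8 CG pairs. Ryr1 encodes the calcium release channel of the sarcoplasmic reticulum, and its window lies at chr7:29125102-29125401 on the minus strand with 9 CG pairs. Hsf2bp encodes a protein of meiotic recombination, and its window lies at chr17:32034459-32034758 on the minus strand with 20 CG pairs. Ifi202b, an interferon-inducible gene of the p200 family, hosts the member with most reads, and its window lies at chr1:173982795-173983094 on the minus strand with 5 CG pairs.
Ttn: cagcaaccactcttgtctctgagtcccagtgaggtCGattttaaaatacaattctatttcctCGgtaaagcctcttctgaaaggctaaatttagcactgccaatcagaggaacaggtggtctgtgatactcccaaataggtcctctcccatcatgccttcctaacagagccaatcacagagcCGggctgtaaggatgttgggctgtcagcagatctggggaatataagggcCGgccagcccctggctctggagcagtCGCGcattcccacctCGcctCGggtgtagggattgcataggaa
Ryr1: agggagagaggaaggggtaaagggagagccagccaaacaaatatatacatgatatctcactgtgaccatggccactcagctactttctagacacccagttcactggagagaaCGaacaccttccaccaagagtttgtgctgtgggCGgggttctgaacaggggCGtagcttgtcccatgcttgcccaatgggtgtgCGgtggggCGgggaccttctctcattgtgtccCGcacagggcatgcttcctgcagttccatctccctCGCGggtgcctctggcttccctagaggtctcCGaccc
Hsf2bp: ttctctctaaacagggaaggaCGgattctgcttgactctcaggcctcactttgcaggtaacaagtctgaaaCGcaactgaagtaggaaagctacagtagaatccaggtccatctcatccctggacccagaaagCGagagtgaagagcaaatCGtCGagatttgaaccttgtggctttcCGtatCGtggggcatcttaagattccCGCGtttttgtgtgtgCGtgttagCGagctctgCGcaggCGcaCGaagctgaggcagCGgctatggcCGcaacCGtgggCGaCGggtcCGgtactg
Ifi202b: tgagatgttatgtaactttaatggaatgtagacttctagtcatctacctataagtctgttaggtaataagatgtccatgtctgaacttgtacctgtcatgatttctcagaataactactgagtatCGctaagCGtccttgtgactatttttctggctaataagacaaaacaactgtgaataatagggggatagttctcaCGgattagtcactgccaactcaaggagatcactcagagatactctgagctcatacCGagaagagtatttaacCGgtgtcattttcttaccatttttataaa

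The median over all 32851 windows of the table was 7 CG pairs, and 51.4% of windows held fewer than that of Ttn, 54.2% fewer than that of Ryr1, 73.5% fewer than that of Hsf2bp and 38.0% fewer than that of Ifi202b. The letters CANNTG, the E-box that myogenic factors such as MyoD bind, were searched in the same windows and read alike on both strands. They were present in 72.3% of all windows, and occurred 1 time in the windows of Ttn, Hsf2bp and Ifi202b and 0 times in that of Ryr1. Of the other hosts below whose mRNA was called higher, windows were examined for Pkhd1, Wdr49 and Trim30a alone, and these held fewer CG pairs than the median window. Windows of the rest, Acss3, Mcmdc2 and Gm6904 among them, are not given here. Pkhd1 held 4, Wdr49 held 3 and Trim30a held 0 in both of its windows. These counts are descriptions of the windows, and methylation was not measured in these samples.

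The members were rarely seen in more than 1 sample. Of the 1806, 1597 (88.4%) were listed in 1 sample, 152 in 2, 34 in 3 and 23 in all 4 samples. In the comparison class 1022 of 2036 (50.2%) were listed in 1 sample and 303 in all 4. The median member had 3 junction reads over the 4 samples together, 1168 members had 2 or 3 reads in all, and 25 had at least 20.

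**Figure D1:**
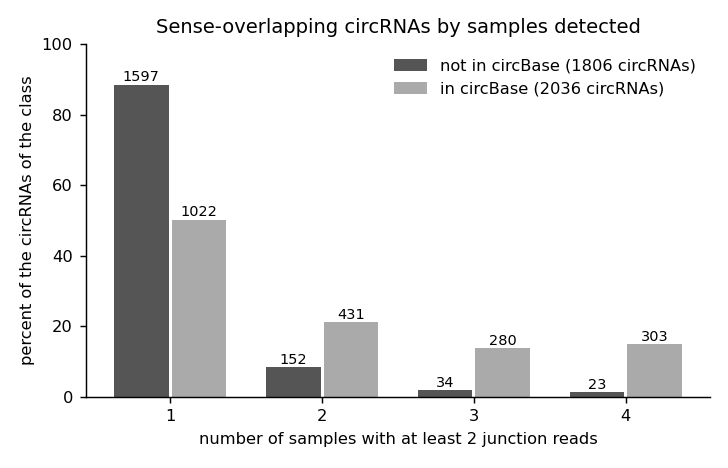
Bars give the percent of each class of sense-overlapping circRNAs (vertical axis) listed with at least 2 junction reads in 1, 2, 3 or 4 samples (horizontal axis), and the numbers on the bars count circRNAs. The bar for 1 sample stands at 88.4% for the members and at 50.2% for circRNAs in circBase.

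Replicates of a group held mostly different members. The untreated replicates listed 618 and 576 members, of which 76 were in both (12.3% and 13.2%). The 5-AZA replicates listed 453 and 448, of which 69 were in both (15.2% and 15.4%). For circRNAs in circBase the shared ones were 553 without 5-AZA (55.0% and 51.3%) and 471 with it (49.8% and 51.9%). Of all members 974 were listed in untreated samples alone, 688 in 5-AZA samples alone and 144 in both groups.

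Fewer members were listed after 5-AZA, while their share of junction reads lay within the spread of the untreated replicates. The mean number listed was 597 ± 29.7 (SD, n = 2) in untreated and 450.5 ± 3.54 (SD, n = 2) in 5-AZA samples, and both 5-AZA samples lay below both untreated samples (two-sided exact permutation test, p = 0.333, the smallest that 2 against 2 samples allow). Per 1000 junction reads of the sample the numbers were 46.5 and 43.0 against 41.5 and 42.9 members, and these were also lower in both 5-AZA samples (exact permutation p = 0.333). Members took 18.5% (95% exact binomial interval 17.9 to 19.2) and 17.1% (16.5 to 17.7) of the junction reads in the untreated and 18.2% (17.5 to 19.0) and 18.5% (17.8 to 19.3) in the 5-AZA replicates. The intervals cover counting error only. The groups overlapped, and the difference of 0.558 percentage points had an exact permutation p of 1. Without circRNA_0241 of Ifi202b the shares were 18.2% and 16.7% against 16.1% and 16.7%, so that 1 circRNA turned the direction of this difference.

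**Figure D2:**
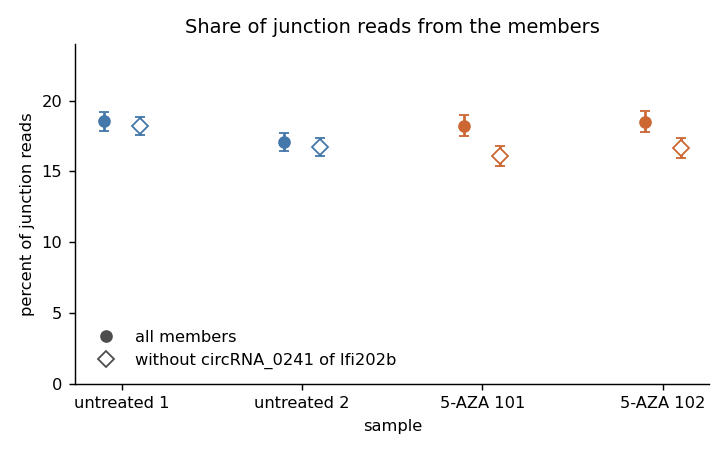
Points give the percent of a sample's junction reads (vertical axis) that fell on the members in each of the 4 samples (horizontal axis), with 95% exact binomial intervals as bars, for all members (filled) and without circRNA_0241 of Ifi202b (open). The filled points lie between 17.1% and 18.5%, and leaving out that circRNA moves both 5-AZA points to below 17%.

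A detected member had 3.98 and 3.97 junction reads on average in the untreated and 4.39 and 4.32 in the 5-AZA replicates (exact permutation p = 0.333). Without circRNA_0241 these were 3.92 and 3.89 against 3.88 and 3.89, and the groups overlapped. Detected circRNAs in circBase had more reads in each of the 4 samples, with 8.05 and 7.76 against 7.12 and 6.91. The difference between the classes averaged -3.29 ± 0.741 reads (SD over 4 samples), with an exact sign-flip p of 0.125, the smallest that 4 samples allow.

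The members with most reads come from genes of unlike roles. Their values are given next, beside the FPKM of the host gene's mRNA, to which reads from inside the circle also contribute. No circRNA, and so no member, passed an adjusted p below 0.05 and a 2-fold change with limma (0 of 1360 circRNAs tested, 0%, smallest adjusted p 0.119). Over all circRNAs listed in any sample 2 members were called (beside 0.0698% of circRNAs), those of Ifi202b and Gm6904, and over circRNAs in all 4 samples also 2 (beside 2.10%), those of Ifi202b and Arhgap21. Every p for a circRNA in this account is limma's on log2(RPM + 0.0213) over the 1360.

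The most abundant member was circRNA_0241 of Ifi202b (chromosome 1, 173912814 to 173982741, minus strand). For every circle in this account, start and end mean the lower and the higher genome position, whatever the strand. It had 44 and 52 reads without 5-AZA and 234 and 194 with it, and the groups did not overlap. Its RPM was 4.45-fold higher on average in the 5-AZA samples (log2 fold change 2.11 ± 0.16 SE, unadjusted p = 0.000711, adjusted p = 0.119). The mRNA of Ifi202b was at 8.13 and 6.87 against 30.1 and 27.6 FPKM and was called higher (limma, log2 fold change 1.93 ± 0.13, adjusted p = 1.32e-05). This circRNA overlaps Ifi202b, Ifi203 and Ifi211, closely related neighbours of 1 gene cluster, so the gene of origin is uncertain.

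circRNA_0980 of Setd3, which encodes the histidine methyltransferase of actin, had 117 and 123 reads without 5-AZA and 72 and 68 with it. Both 5-AZA values lay below both untreated values, at a ratio of 0.582 in RPM (log2 fold change -0.76 ± 0.09 SE, unadjusted p = 0.00284, adjusted p = 0.119). Scaled to each sample's junction reads, the log2 fold change was smaller, at -0.45. The mRNA of Setd3 was at 34.4 and 34.3 against 30.7 and 32.1 FPKM and was not called (limma, log2 fold change -0.13 ± 0.10, adjusted p = 0.393). The circle held 95.7% of the junction reads of all circRNAs of Setd3.

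circRNA_2323 of Arhgap21, a GTPase-activating protein, had 60 and 69 reads without 5-AZA and 24 and 27 with it. The groups did not overlap, at a ratio of 0.394 in RPM (log2 fold change -1.28 ± 0.15 SE, unadjusted p = 0.00245, adjusted p = 0.119). With scaling to junction reads the log2 fold change was -0.97, which is less than 2-fold. Here the host mRNA was called lower as well, from 17.5 and 18.8 to 7.84 and 8.88 FPKM (limma, log2 fold change -1.11 ± 0.13, adjusted p = 0.000283). A circBase circle of the same gene, circRNA_2322, ends at the same base but starts at another, and had 0 and 5 against 4 and 0 reads.

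Several of the most-read members had overlapping groups. circRNA_1457 of Rspo2, a secreted enhancer of Wnt signalling, had 36 and 46 reads without 5-AZA and 42 and 30 with it. circRNA_2170 of Rbm4, an RNA-binding regulator of splicing, had 24 and 39 against 26 and 28 reads. circRNA_4019 of Arih1, a ubiquitin ligase, had 37 and 16 against 21 and 27 reads. In these 3 circRNAs the log2 difference of the groups was smaller than 0.2, and its sign depended on the scaling. circRNA_0392 of Sept10, a septin of the cytoskeleton, had 13 and 18 against 7 and 8 reads, with both 5-AZA values lower (log2 fold change -0.87 ± 0.26 SE, limma unadjusted p = 0.0418). Its log2 fold change was -0.61 when scaled to junction reads.

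**Figure D3:**
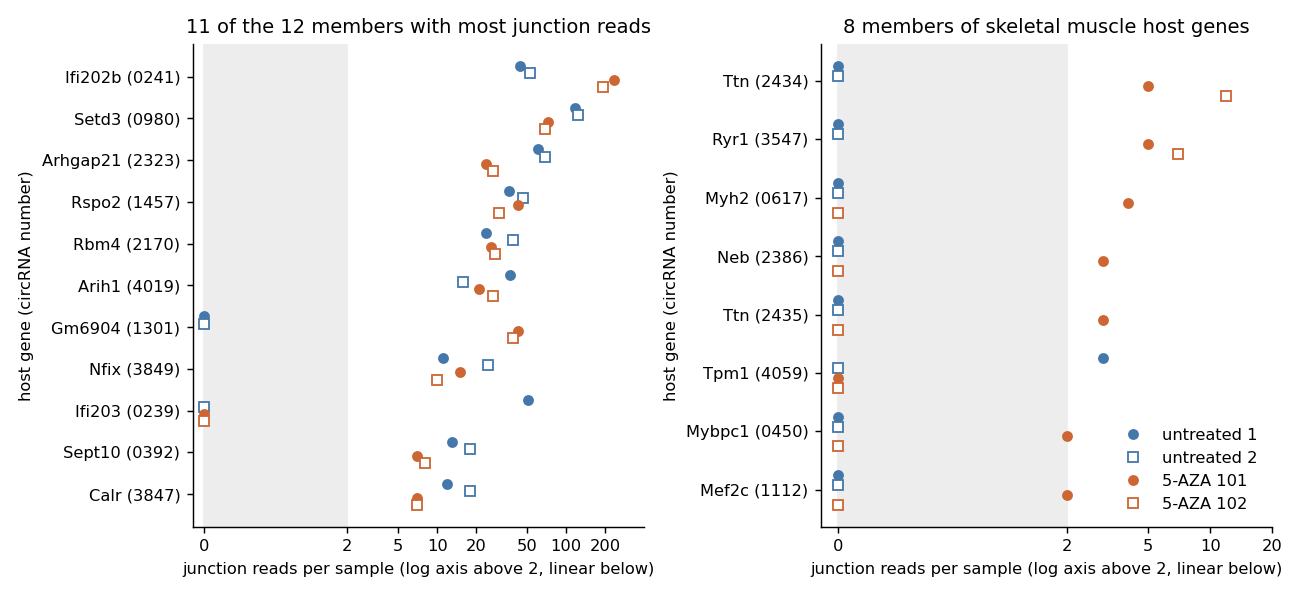
Junction reads per sample (horizontal axis, log scale above 2 and linear below, where the grey band marks values that are listed as 0) are shown for 11 of the 12 members with most reads and the 8 members of skeletal muscle host genes (vertical axis). Untreated replicates are blue and 5-AZA replicates orange, with the filled circle for replicate 1 or 101 and the open square for 2 or 102. Ifi202b and Gm6904 lie higher in both 5-AZA samples, and 7 of the 8 muscle members have reads in 5-AZA samples alone.

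Of the 1806 members, 209 were seen in at least 2 samples and so could be tested, and 1597 could not. At an unadjusted p below 0.05, 31 members had higher values after 5-AZA, beside 6.69% of all circRNAs tested, and 37 had lower values, beside 11.8%. With limma's voom on the recovered reads these counts were 36 and 28, and when any 1 library was left out they were at most 7 and 9. Of these 68 members 62 are listed in 1 group alone. A member tested because both samples of 1 group list it had to differ, so the counts are descriptions. The remaining 6 were the circles of Ifi202b, Setd3, Arhgap21 and Sept10 above, circRNA_3847 of Calr and circRNA_0336 of Eya4. The last had 3 and 2 reads without 5-AZA and 9 and 8 with it (log2 fold change 1.23 ± 0.32 SE, limma unadjusted p = 0.0278), while the mRNA of Eya4, a transcriptional coactivator and phosphatase, was at 42.6 and 43.1 against 36.5 and 33.2 FPKM and was not called. The median log2 fold change was -0.16 over the members tested and -0.16 over all circRNAs tested. Scaling to each sample's junction reads moved the median of all circRNAs by 0.15, and voom moved it by 0.25.

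In both 5-AZA samples and neither untreated sample, 31 members were listed (1.72% of the members, beside 2.07% of all circRNAs). The one with most reads was circRNA_1301 of the predicted gene Gm6904, with 0 and 0 against 42 and 39 reads. circRNA_0010 of Mcmdc2, a gene of meiotic recombination, had 0 and 0 against 24 and 17 reads, and a second circle of the gene with the same end, circRNA_0009, had 0 and 0 against 6 and 6. Every untreated value of these 3 circRNAs was 0, so no fold change is given. circRNA_0468 of Acss3, a mitochondrial acyl-CoA synthetase, had 0 and 0 against 9 and 24 reads. The sparsest of the 31 had 2 reads in each 5-AZA sample, as in the circles of Rev3l and Stat6.

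The host genes of these 31 members number 30, and 9 of the 30 (30%) had mRNA called higher after 5-AZA, beside 13.1% of all 13199 genes tested. They were Ttn, Ryr1, Acss3, Mcmdc2, Hsf2bp, Gm6904, Pkhd1, Trim30a and Wdr49. The 31 members were picked for being listed in 5-AZA samples alone. A gene without RNA in untreated samples can give a circle only in 5-AZA samples, so the 30% is a description. Among the hosts of all members 3.89% were called higher. Mcmdc2 mRNA was at 5.68e-08 and 0.0463 FPKM in the untreated and 5.42 and 5.18 FPKM in the 5-AZA replicates (limma, log2 fold change 5.48 ± 0.30 on log2(FPKM + 0.1), adjusted p = 4.81e-06). Hsf2bp mRNA was at 0.165 and 0.0496 against 2.02 and 2.74 FPKM, beside 0 and 0 against 5 and 3 reads of its circle. Pkhd1, the gene of the ciliary protein fibrocystin, was listed at 0 FPKM in both untreated samples and at 0.996 and 1.39 FPKM after 5-AZA. In all 9 the untreated mRNA was below 1 FPKM and both 5-AZA values were above the untreated ones. One of the 30, Abtb2, was called lower (beside 1.32% of all genes), at 14.98 and 14.43 against 6.01 and 7.55 FPKM, while its circle circRNA_2459 had 0 and 0 against 3 and 8 reads. The other 20 hosts were not called, among them Kitl, Sparc, Stat6 and Nfix. The median log2 fold change of the 30 hosts was 0.16, beside 0.05 over all genes. In the comparison class 49 circRNAs were listed in both 5-AZA samples alone, and 3 of their 47 hosts (6.38%) were called higher.

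**Figure D4:**
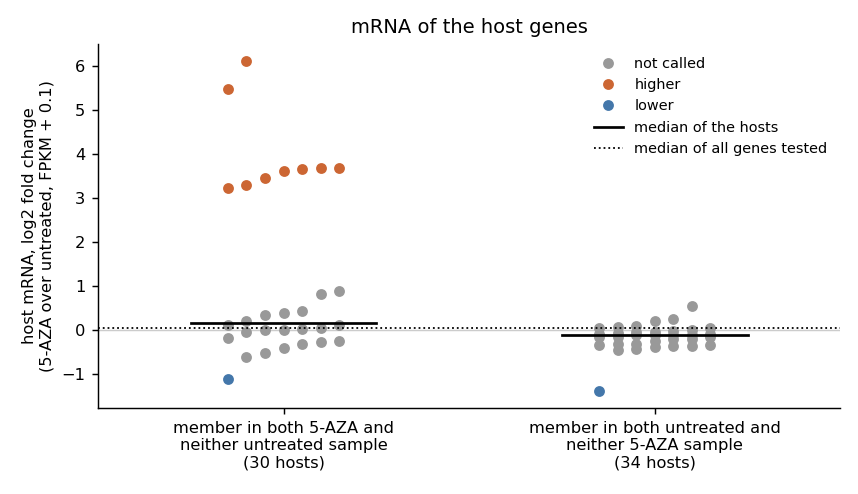
Points give the log2 fold change of host mRNA (5-AZA over untreated, on FPKM + 0.1, vertical axis) for the hosts of members listed in both samples of 1 group and neither of the other (horizontal axis), coloured by limma's call, with the medians of the hosts as solid lines and that of all genes as a dotted line. On the left 9 of the 30 hosts lie above 3 and are called higher, and 0 of the 34 on the right are.

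In both untreated samples and neither 5-AZA sample, 34 members were listed (1.88%, beside 3.00% of all circRNAs). circRNA_1351 of Diaph3, a formin that elongates actin filaments, had 16 and 14 against 0 and 0 reads. Diaph3 mRNA was at 13.6 and 10.6 against 11.2 and 12.2 FPKM, and the groups overlapped (limma, log2 fold change -0.04 ± 0.15). A circBase circle of the same gene, circRNA_1350, had 4 and 5 against 7 and 4 reads. circRNA_1266 of Cdkn3, a phosphatase that acts on cyclin-dependent kinases, had 8 and 11 against 0 and 0 reads, and circRNA_1697 of Phldb2, a microtubule anchor at the cell cortex, had 5 and 11 against 0 and 0. Neither mRNA was called, with log2 fold changes of -0.32 ± 0.22 and -0.12 ± 0.10 SE. circRNA_3394 of Luc7l2, a splicing factor, and circRNA_3762 of Dlc1, a GTPase-activating protein, had 9 and 4 reads and 6 and 6 reads without 5-AZA and none listed with it. circRNA_2766 of Col11a1, a chain of type XI collagen, had 7 and 11 against 0 and 0 reads, and its host was the only 1 of the 34 called in either direction, at 40.1 and 43.0 against 12.9 and 19.3 FPKM (limma, log2 fold change -1.39 ± 0.18, adjusted p = 0.000527). Of the 34 hosts 0 were called higher, and their median log2 fold change was -0.12.

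Skeletal muscle genes hosted 8 members from 7 genes, and 7 of the 8 were listed in 5-AZA samples alone, as were 688 of all 1806 members. Together they had 3 and 0 reads without 5-AZA and 24 and 19 with it. In a sample of mixed cells, more muscle cells and more muscle RNA per cell cannot be told apart. circRNA_2434 of Ttn (chromosome 2, 76853605 to 76856366, minus strand) is 414 bases long and had 0 and 0 against 5 and 12 reads. A longer circle with the same start, circRNA_2435, is 834 bases long and had 3 reads in 5-AZA replicate 101 alone. circRNA_3547 of Ryr1 (chromosome 7, 29035980 to 29040893, minus strand) is 650 bases long and had 0 and 0 against 5 and 7 reads. Both were tested only because both 5-AZA samples list them, so no p is given. For both circles the upper limit that a listed 0 allows is fewer than 2 reads in an untreated sample, so the lowest 5-AZA value stood at 5 reads against at most 1.

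The mRNA of 6 of the 7 muscle hosts was called higher, beside 13.1% of all genes. Ttn mRNA was at 0.0168 and 0.0120 against 7.24 and 8.59 FPKM (limma, log2 fold change 6.13 ± 0.26, adjusted p = 1.35e-06). Ryr1 mRNA was at 0.00345 and 0.00804 against 0.763 and 1.04 FPKM (limma, log2 fold change 3.23 ± 0.36, adjusted p = 0.00024). The others called were Neb, which encodes the thin filament protein nebulin, Myh2, a fast myosin heavy chain, Mybpc1, a myosin-binding protein, and Mef2c, a transcription factor of muscle. Each of these 4 had 1 circle with 2 to 4 reads in 5-AZA replicate 101 and none listed elsewhere. The circle of Myh2 overlaps Myh1, Myh2 and Myh4, closely related neighbours, so its gene of origin is uncertain. Tpm1, a tropomyosin gene also used outside muscle, had a circle with 3 reads in untreated replicate 1 alone, and its mRNA was at 281 and 288 against 445 and 552 FPKM without passing 2-fold. Over the whole list of 82 skeletal muscle genes 64 of 74 tested mRNAs were called higher and 0 lower, and only 10 genes had any circRNA. The circRNAs of the list outside the members were 1 antisense circle of Ttn and 1 circBase circle each of Mef2d, Cacna2d1 and Mef2a, with 3, 7, 3 and 15 reads in all.

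Other lists of host genes gave few reads per circle. Actin cytoskeleton and adhesion genes hosted 59 members, with 87 and 60 reads without 5-AZA and 67 and 51 with it, which overlapped. Extracellular matrix genes hosted 21, with 26 and 22 against 29 and 29 reads, and these went in both directions. The one with most reads, circRNA_2766 of Col11a1, had 7 and 11 against 0 and 0, and circRNA_1702 of Abi3bp, an extracellular matrix protein, had 0 and 0 against 6 and 6. Chromatin and DNA methylation genes hosted 33, with 37 and 37 against 20 and 18 reads. In this last list both 5-AZA samples were below both untreated samples, and 13 and 12 against 5 and 7 of its members were detected. All members together showed the same order, with 2461 and 2289 against 1987 and 1935 reads and 618 and 576 against 453 and 448 detected. Its member with most reads, circRNA_2110 of Mbd2, which encodes a reader of methylated DNA, had 5 and 5 against 0 and 3 reads.

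Interferon response genes hosted 5 members with 102 and 52 against 257 and 208 reads. circRNA_0241 held 44 and 52 against 234 and 194 of these, and circRNA_0239 of Ifi203 held 51 in untreated replicate 1 alone. circRNA_3240 of Gbp6, a guanylate-binding protein, had 5 and 0 against 15 and 12 reads (limma unadjusted p = 0.0730), and circRNA_3637 of Trim30a, an interferon-inducible TRIM protein, had 0 and 0 against 8 and 2. Proliferation genes hosted 10 members, mesenchymal markers 5 and genes of circRNA formation and decay 5, each list with at most 15 reads in a sample. Markers of cardiac muscle, adipocytes, chondrocytes and immune cells hosted 0 members. Of 31 genes of circRNA formation and decay whose mRNA was tested, 1 was called, Rbm20, a splicing regulator of titin in striated muscle, at 0.125 and 0.0617 against 1.21 and 1.51 FPKM. The median log2 fold change of these 31 was -0.12.

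Members were longer than the comparison class. Length here is the listed length, which leaves out introns in most cases, since it equals the distance between the junction ends in 60 of the 1806. The median was 682 bases (quartiles 436 and 1251), against 552.5 bases (383 and 913) for circRNAs in circBase. The median distance between the ends was 12153 against 10924.5 bases. Among circRNAs detected in a sample, the members' median length was 684 and 699 bases in the untreated and 663 and 642 bases in the 5-AZA replicates. In circBase it was 554 and 567 against 557 and 541 bases, so the members were longer in 4 of 4 samples, by 117 ± 16.03 bases (SD over 4 samples, exact sign-flip p = 0.125, the smallest 4 samples allow).

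The difference was widest at the upper end. A listed length of 5000 bases or more was held by 143 members (7.92%) and by 28 circRNAs in circBase (1.38%), and 20000 bases or more by 66 (3.65%) and 7 (0.344%). In 56 of these 143 members, and in 32 of the 66, the listed length was at least 90% of the distance between the ends. Their listed length is thus close to the whole stretch of genome, introns included. In circBase this held for 12 of the 28 and 5 of the 7. The 66 longest took 187 and 143 reads without 5-AZA and 388 and 345 with it, of which circRNA_0241 alone had 44 and 52 against 234 and 194. Of these 66, 15 (22.7%) were seen in at least 2 samples, against 13.1% of members from 500 to under 1000 bases. The longest members seen in at least 2 samples were circRNA_1792 of Zfp97 (90755 bases), circRNA_3849 of Nfix (85211) and circRNA_3502 of C1s2 (85180). The shortest were circRNA_0339 of Eya4 (149 bases), circRNA_0542 of Ehbp1 (150) and circRNA_0216 of Dcaf6 (178). The circle of Eya4 also spans the widest stretch, 96345 bases, ahead of circRNA_1332 of Fndc3a (94018) and circRNA_3502 of C1s2 (93979), and had 3 and 6 against 0 and 7 reads.

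**Figure D5:**
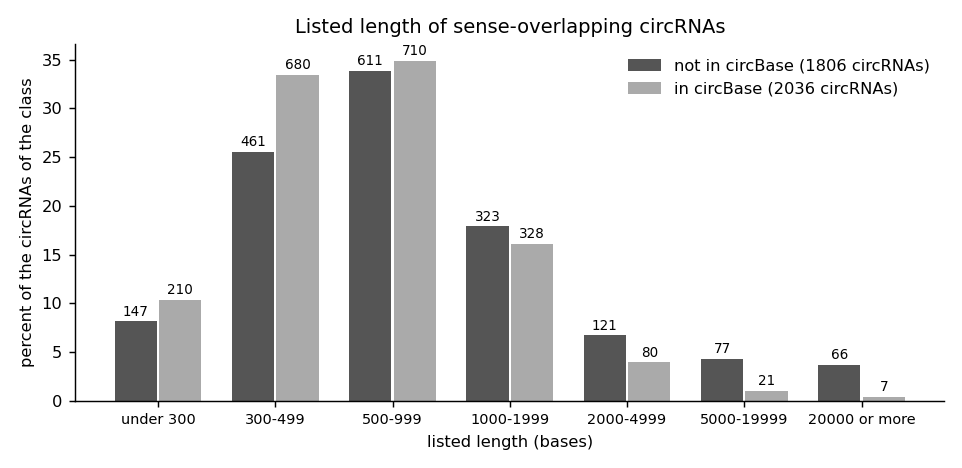
Bars give the percent of each class of sense-overlapping circRNAs (vertical axis) by listed length in bases (horizontal axis), with counts on the bars. The members have lower bars than circRNAs in circBase below 1000 bases and higher bars from 1000 bases up, with 66 against 7 circRNAs at 20000 bases or more.

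Many of the longest members overlap more than 1 coding gene. Spanning a gene here means overlapping it by any stretch, on either strand, also where the gene lies only partly between the ends. Of the 143 members of 5000 bases or more, 39 (27.3%) span at least 2 protein-coding genes and 15 span at least 3, while 17 of the 1663 shorter ones (1.02%) span at least 2. Of all members 56 (3.10%) span at least 2 coding genes, against 25 (1.23%) in circBase. Some of the most-read ones lie in clusters of similar genes, where reads between closely related copies cannot be assigned with certainty. Besides circRNA_0241, circRNA_1301 of Gm6904 is of this kind, covers 78526 bases and overlaps Phf11a and Phf11b. circRNA_3849 of Nfix, a transcription factor of the nuclear factor I family, covers 85613 bases, overlaps 6 coding genes, and had 11 and 25 against 15 and 10 reads. circRNA_3847 of Calr, a calcium-binding chaperone of the endoplasmic reticulum, starts at the same base and had 12 and 18 against 7 and 7 reads (limma unadjusted p = 0.0484). At that same start lies circRNA_3844 of Nfix, which is in circBase, is 532 bases long and had 438 and 425 against 429 and 360 reads.

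The junction ends of the members were compared with those of catalogued circles. An identical start or end in a circBase circRNA of the table was held by 468 members (25.9%, 95% exact interval 23.9 to 28.0), and 29 shared both. Among circBase sense-overlapping circRNAs, 924 of 2036 (45.4%) shared an end with another circBase circle. Of members seen in at least 2 samples 66 of 209 (31.6%) shared an end. The circles of Setd3 and Sept10 share their start with a circBase circle of the same gene.

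The 1806 members come from 1293 host genes, of which 957 gave 1 member, 104 gave at least 3 and 18 at least 5. For 512 of these hosts (39.6%) the table also lists a circBase circle, and 834 members (46.2%) lie in such genes. Eya4, Arhgap10 and Utrn gave 7 members each, the most of any host. Those of Eya4 had 14 and 13 reads without 5-AZA and 11 and 23 with it, and make up 61 of the 66 junction reads of the gene. Those of Arhgap10, a GTPase-activating protein, had 4 and 8 against 9 and 13 reads, 34 of the 227 junction reads of that gene. Those of Utrn, the gene of utrophin at the muscle membrane, had 14 and 6 against 5 and 0 reads, and 6 of the 7 were listed in 1 sample. Across all hosts of members 50 of 1287 tested (3.89%) were called higher and 12 (0.932%) lower, beside 13.1% and 1.32% of all genes. Fewer hosts, and fewer of all genes, were called when either 5-AZA replicate was left out. With quantile normalization the split was 39 higher and 36 lower, beside 7.89% and 6.71% of all genes. With centring on the median it was 43 and 18, beside 12.1% and 1.91% of all genes.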

How the data were processed

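Total RNA of 2 untreated and 2 5-AZA samples of C3H10T1/2 was analysed. The authors trimmed the reads with Trimmomatic and deposited RPM values per circRNA and FPKM values per RefSeq transcript. The submitters' processing notes also name HISAT2, Bowtie2 2.2.9, eXpress 1.5.1 and mm9, while the circRNA caller is not given in the sources used here. Host transcript positions matched GRCm38.p6 (100% on the same chromosome and overlapping the gene, 69.8% with an identical start or end, of 2427 matched), so coordinates are read on that build.

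Junction reads were recovered per column as the RPM over the step between listed values, of which the smallest value holds 2, with a tolerance of 1e-06. These steps correspond to 92903364 to 93920706 reads per sample. The deposited unit is RPM, so no count model was the main test. FPKM keeps no counts, so the depth behind a gene's level is unknown. The lncRNA values were not used here.

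limma 3.58.1 (lmFit, eBayes with trend, R 4.3.3) was fitted on log2(RPM + 0.0213) for the 1360 circRNAs seen in at least 2 samples, and on log2(FPKM + 0.1) for the 13199 genes of at least 0.1 FPKM on average, with transcripts summed per gene. Adjustment was by Benjamini and Hochberg over all circRNAs or genes tested, and a call needed an adjusted p below 0.05 and over 2-fold. Values per sample were compared by exact permutation with scipy 1.17.1. On simulated data with planted changes, the direction was checked for circRNAs and the calls were checked for genes. How many changed circRNAs the fit would call was not checked.

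Members named are the 12 with most reads (1 of them is not reported here), all with a muscle host, the 6 with the largest difference in each direction at an unadjusted p below 0.05 with groups that do not overlap, those of the 10 hosts with most members, the longest, shortest and widest, those in all 4 samples and up to 4 a list. Circles of Rev3l, Stat6 and Abtb2, and those named in the other observations, were chosen after their values were seen. The members, gene lists and rules were chosen with earlier results of these data known. Promoter windows are RefSeq's on GRCm38.p6, with an entry for 6 of the 9 hosts called higher. Sequences of the junctions were not used here.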

Additional observations from a re-analysis of the deposited data

How the results depend on the processing

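With limma on every circRNA listed in any sample, 3 of 4295 (0.0698%) were called, 2 of them members (Ifi202b and Gm6904), and members past the unadjusted threshold numbered 16 higher and 12 lower. The circle of Gm6904 is listed in 5-AZA samples alone and had to differ, so its call is a description. On the 381 circRNAs in all 4 samples 8 (2.10%) were called, 2 of them members (Ifi202b and Arhgap21), with 2 higher and 3 lower at the unadjusted threshold. Leaving out each library in turn gave 0 calls, 1 to 7 members higher and 1 to 9 lower, and there the lone sample of a group is assumed to vary like the others. By construction these fits hold more or fewer circRNAs, or fewer samples. The difference in the members' share of junction reads was -1.08 percentage points without circRNA_0241 and ranged from -0.16 to 1.27 without each library, and that in reads per detected member was -0.0173 without circRNA_0241. Members in both samples of 1 group alone numbered, at minimums of 3 and 5 reads, 20 and 12 for 5-AZA and 22 and 11 for untreated. Hosts called ranged from 24 to 54 higher and 4 to 14 lower without each library, and were 7 lower with no filter and 36 lower with quantile normalization. The share of members with a catalogued end was 31.6% for those in at least 2 samples. Of named members, the log2 fold changes of Rspo2, Rbm4 and Arih1 turned to 0.12, 0.13 and 0.26 when scaled to junction reads and to 0.13, 0.14 and 0.29 with voom. Without each library Rspo2 ranged from -0.43 to 0.0474, Rbm4 from -0.50 to 0.15, Nfix from -0.92 to 0.13 and Arih1 from -0.60 to 0.52. Values with voom, without circRNA_0241 and at higher minimums for members of 1 group were chosen after seeing the data. Alternatives with edgeR and DESeq2 were not run, since the deposited unit is RPM and its smallest value stands for 2 reads and not 1, and voom was used in their place. No paired analysis was possible because the groups share no replicate numbers. Depth limits these results, since 1168 members had 2 or 3 reads in all, and a member that was not called has not been shown to be unchanged.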

Other observations

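Pcbp2, which encodes a poly(C)-binding RNA regulator, gave 5 members and no circBase circle, and pairs of them differ by 24 bases in their start on chromosome 15. circRNA_1580, which starts at 102473285, had 4 and 5 reads in the untreated and 0 and 0 in the 5-AZA replicates. circRNA_1578 starts at 102473261, has the same end, and had 0 and 4 against 2 and 9 reads. The 2 circles together had 4 and 9 against 2 and 9 reads, so the groups no longer separate when the nearby starts are joined. circRNA_1581 and circRNA_1579 are the corresponding pair with a farther end at 102490803, and together had 0 and 0 against 9 and 3 reads. Nearby starts also occur in C1s2 on chromosome 6. There circRNA_3502, listed in both 5-AZA samples alone, starts at 124542188 and had 0 and 0 against 4 and 2 reads. circRNA_3503 starts at 124542198, has the same end, and had 0 and 6 against 0 and 3 reads.

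Of the 1597 members listed in 1 sample, 8 had at least 10 reads there, as did 14 of the 1022 circBase circles listed in 1 sample. circRNA_0239 of Ifi203, an interferon-inducible gene of the p200 family, had 51 reads in untreated replicate 1 and none listed in the other 3 samples, while Ifi203 mRNA was at 4.74 and 3.34 against 18.8 and 14.0 FPKM. circRNA_2948 of Cntln, the gene of a centrosomal protein, had 16 reads and circRNA_1836 of Cyp4f37, a cytochrome P450, had 14 reads in the same replicate alone.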
